A study of Mus musculus with 30 samples.

Results

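Transcripts of 10 immediate early genes were followed in mouse lung organoids that had been exposed to inflammatory or profibrotic factors and then separated into epithelial cells and fibroblasts. The genes were Fos, Fosb, Fosl1, Jun and Junb of the AP-1 group, Egr1, Egr2 and Egr3 of the EGR group, and Atf3 and Ier3, each chosen by its symbol among the 55487 genes of the count tables, and all 10 had enough reads to be tested in every comparison. Each organoid culture combined 300000 freshly isolated lung cells, negative for CD31 and CD45 and positive for Epcam, from an adult wild type (WT) C57BL/6J mouse with 300000 CCL206 cells. CCL206 is a single mouse lung fibroblast line, and its proliferation had been stopped with mitomycin C, so the fibroblast replicates were repeated cultures of 1 line and the mouse number marked the epithelial donor they were grown with. All cultures, vehicle included, grew in Matrigel in a medium with serum, epidermal growth factor and the small molecule Y-27632. For 72 h they received vehicle, TGF-β at 2 ng/ml (TGFb), an exacerbation cocktail (EC) of 4 factors modelled on flares of chronic obstructive pulmonary disease, or a cocktail of 9 factors raised in idiopathic pulmonary fibrosis (IPFc). EC held IL-1β, IL-6, TNF-α and a CXCR2 ligand, called IL-8 in the sample records and KC in the methods of the study. IPFc held TGF-β as well, together with TSLP, TNF-α, CCL2, IL-8 and the interleukins 33, 13, 4 and 1β. Matrigel was then digested with dispase, organoids were broken up with trypsin, and the cells were sorted on Epcam microbeads into an epithelial (Epcam+) and a fibroblast (Epcam-) fraction for bulk sequencing.

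The 30 libraries formed 8 groups from 4 mice. Mice 1 to 4 were present in 6 groups, fibroblast vehicle held mice 1, 3 and 4, and epithelial TGFb held mice 2, 3 and 4. Library totals ran from 5113828 to 20317181 counts. The fibroblast EC library of mouse 1 had the fewest reads (the next lowest total was 8275413) and the smallest share of reads on genes with at least 5 kb of exon, 54.3% against 59.2% to 68.3% in the other 29 libraries. The fractions carried RNA of each other: 12 epithelial marker genes summed to 6743 to 17402 CPM (counts scaled to a common library size) in epithelial libraries and to 111 to 7692 CPM in fibroblast libraries, while 14 fibroblast marker genes summed to 4914 to 18475 CPM in fibroblast libraries and to 448 to 4488 CPM in epithelial ones. Thy1 was at or near 0 CPM and Postn reached at most 4.08 CPM, whereas immune and endothelial markers summed to at most 16.6 and 4.46 CPM. Estimated from marker genes, fibroblast RNA made up 5.54% ± 2.26 (SD, n = 4) of epithelial vehicle libraries, 10.7% ± 3.86 (n = 4) with EC, 11.0% ± 5.43 (n = 4) with IPFc and 27.6% ± 2.60 (n = 3) with TGFb. In the other direction, epithelial RNA made up 18.9% ± 6.49 (n = 3) of fibroblast vehicle libraries, 41.8% ± 9.36 (n = 4) with EC, 16.9% ± 8.20 (n = 4) with IPFc and 1.95% ± 1.11 (n = 4) with TGFb. A second estimate from Xist and Y-linked genes gave 24.8% to 38.2% fibroblast RNA in epithelial TGFb libraries and 0.224% to 1.89% epithelial RNA in fibroblast TGFb libraries. These shares moved with treatment, and in bulk samples fewer cells of a type and less RNA per cell cannot be told apart.

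Immediate early genes are silent or low in resting cells and are transcribed within minutes of a growth factor, cytokine or stress signal, without any new protein being needed first. Serum response factor bound at CArG boxes, together with partner factors that are phosphorylated by ERK, switches on Fos and the EGR genes, and their products in turn act as transcription factors. FOS proteins pair with JUN proteins to form AP-1, which binds TGANTCA, while the EGR zinc finger proteins bind GC-rich sites. In lung, AP-1 and EGR1 have long been tied to injury, inflammation and TGF-β driven matrix production. The transcripts are short-lived and can also be induced by enzymatic dissociation, which every library here went through, and its part in the levels was not tested.

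Promoter sequence from RefSeq was used for 7 of the genes, as the 250 bases that end near the transcription start, and each window was placed on GRCm39 by exact match. Egr1, Egr3 and Fosl1 were not among the genes searched. The windows of Egr2 and Atf3 are shown because these genes moved in opposite directions with TGF-β in fibroblasts. In the Egr2 window (chr10:67373449-67373698, plus strand) the capitals mark a CArG box whose first base lies 72 bases before the end of the window, and the Atf3 window (chr1:190915531-190915780, minus strand) held no searched motif. The last 7 bases of each lie in the first exon of the GENCODE annotation.
Egr2: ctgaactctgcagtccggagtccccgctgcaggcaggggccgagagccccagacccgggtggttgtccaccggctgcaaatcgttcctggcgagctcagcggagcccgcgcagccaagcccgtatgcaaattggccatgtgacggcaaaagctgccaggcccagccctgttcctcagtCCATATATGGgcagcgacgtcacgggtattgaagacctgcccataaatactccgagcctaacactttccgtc
Atf3: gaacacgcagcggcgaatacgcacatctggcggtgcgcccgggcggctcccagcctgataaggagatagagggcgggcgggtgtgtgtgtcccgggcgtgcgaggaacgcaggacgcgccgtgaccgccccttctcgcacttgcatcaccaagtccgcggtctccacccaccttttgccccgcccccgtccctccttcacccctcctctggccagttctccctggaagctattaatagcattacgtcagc
The CArG box, searched as a named motif on both strands, was found in 1 of the 7 windows and in 1.48% of 32536 windows of all genes. The EGR site GCGNGGGCG was found in Fosb alone, against 4.74% of all windows, and NF-kB sites were found in Fos, Fosb and Ier3, against 7.28%. None of the 7 windows held the AP-1 site TGANTCA (6.73% of all windows), the cyclic AMP response element TGACGTCA (1.56%) or the SMAD site GTCTAGAC (0.169%). These matches describe letters within 250 bases and leave out distal enhancers.

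Levels are CPM scaled by TMM, a normalization that balances library composition. Exons of Fosl1 share 1163 bases with Ccdc85b on the opposite strand, those of Jun 528 with Junos and those of Junb 173 with Prdx2, and where counting ignored strand, reads of such a pair cannot be told apart. Values per kb of exon are given where genes are compared. In fibroblast vehicle libraries the order per kb was Junb (233 CPM per kb), Jun (144), Ier3 (135), Fos (120.4), Fosb (82.6), Egr1 (64.4), Fosl1 (29.6), Atf3 (19.5), Egr2 (6.21) and Egr3 (5.53). In epithelial vehicle libraries Jun (104 CPM per kb), Ier3 (98.7), Fos (87.0), Junb (75.0) and Atf3 (59.1) led, Fosb stood at 35.1, Fosl1 at 17.4 and Egr1 at 8.29, and Egr2 (0.382) and Egr3 (0.190) were close to the limit of detection. Jun, Junb, Fos and Ier3 thus made up the first 4 in both fractions, Egr2 and Egr3 were last in both, and Atf3 stood at rank 8 in fibroblasts and rank 5 in epithelium. When the 8 groups were ordered by mean level for each gene, most neighbours in the order overlapped in range: of 7 neighbouring pairs, none was apart for Fos, Fosb, Jun and Ier3, 1 for Fosl1 and Junb, 2 for Atf3, Egr2 and Egr3, and 3 for Egr1.

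**Figure D1:**
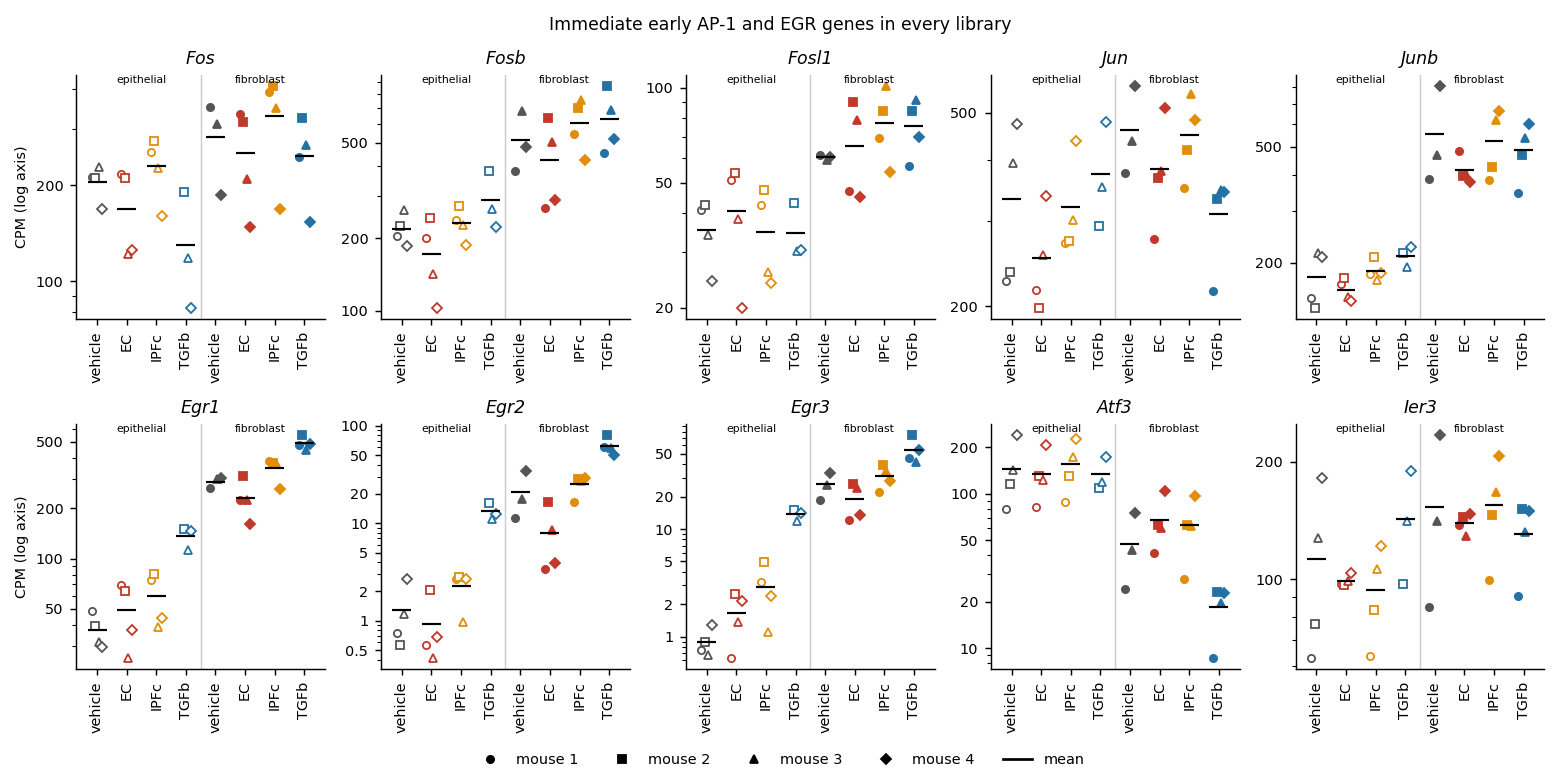
Level of each of the 10 genes in every library, in CPM on a log axis, for the 8 groups of fraction and treatment. Open symbols are epithelial and filled symbols fibroblast libraries, the marker shape is the mouse and the bar is the group mean, with 3 or 4 libraries per group. Egr1, Egr2 and Egr3 sit lower in epithelial than in fibroblast libraries of the same treatment and highest within each fraction with TGFb, and their epithelial TGFb levels reach the fibroblast EC range for Egr2 and Egr3, and Atf3 sits lowest in fibroblast TGFb libraries.

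The first question was how fibroblasts answered TGF-β, the factor best known for driving fibroblast activation. With TGFb, 5 of the 10 genes passed the test in fibroblast libraries, 3 higher and 2 lower, where 19.2% of all genes tested did (6.39% higher and 12.8% lower). The EGR genes were higher and Atf3 and Jun lower, and the remaining AP-1 genes and Ier3 did not pass. The median log2 change of the 10 genes was 0.07, beside -0.02 over all genes tested.

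Egr1 (ENSMUSG00000038418), a zinc finger factor that activates growth and matrix genes, had fibroblast vehicle levels of 265, 299 and 305 CPM in mice 1, 3 and 4 and TGFb levels of 481, 547, 447 and 482 CPM in mice 1 to 4. The ranges did not overlap, and the log2 change was 0.74 ± 0.16 (SE, adjusted p = 0.0023, edgeR), a fold of 1.66. Egr2 (ENSMUSG00000037868, chr10:67371305-67378018), a relative with a role in fibrotic gene programmes of fibroblasts, stood at 11.4, 17.7 and 34.2 CPM with vehicle and at 60.3, 79.8, 59.8 and 49.6 CPM with TGFb. Every TGFb library lay above every vehicle library, with a log2 change of 1.50 ± 0.33 (SE, adjusted p = 0.0031, edgeR), or 1.36 without mouse 3 (adjusted p = 0.076). For Egr3 (ENSMUSG00000033730, chr14:70314350-70320063), a further EGR factor that shares its binding site with EGR1, vehicle levels were 18.7, 25.9 and 33.5 CPM and TGFb levels 45.4, 74.3, 42.3 and 53.9 CPM. These ranges were apart too, and the log2 change was 0.96 ± 0.19 (SE, adjusted p = 0.0015, edgeR). The epithelial share would bring few of the Egr1 reads. The Egr1 level left after subtracting them was 257 to 297 CPM with vehicle and 446 to 543 CPM with TGFb. These levels still hold the dilution of fibroblast RNA by epithelial RNA, which made up 18.9% of vehicle and 1.95% of TGFb libraries. In a fit on counts with that share subtracted the 3 changes stayed positive at log2 values of 0.47, 1.25 and 0.68 for Egr1, Egr2 and Egr3 but no longer passed (adjusted p = 0.145, 0.158 and 0.142, edgeR). Here and below, the share of all genes that passed in fits with a share subtracted is not given. A call lost there is thus not read as the part of carried RNA, since a general loss of calls in these fits was not tested.

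Atf3 (ENSMUSG00000026628, chr1:190902493-190950241) encodes a stress-induced factor that mostly represses inflammatory genes and can pair with JUN proteins. Its fibroblast vehicle levels were 24.0, 43.3 and 75.3 CPM in mice 1, 3 and 4, and its TGFb levels were 8.68, 23.1, 19.5 and 22.6 CPM in mice 1 to 4. All TGFb libraries lay below all vehicle libraries, and Atf3 fell by 1.29 on the log2 scale ± 0.16 (SE, adjusted p = 1.3e-05, edgeR), to a fold of 0.408. Atf3 was more abundant in the epithelial fraction of every culture, and the epithelial share of fibroblast libraries was lowest with TGFb. The amount of Atf3 that the share would bring was 48.4% to 83.6% of the measured level in fibroblast vehicle libraries and 4.98% to 24.7% in TGFb libraries, leaving 11.5 to 22.4 CPM and 6.98 to 20.4 CPM. The remaining ranges overlapped, and with the share subtracted the log2 change was -0.62 (adjusted p = 0.854, edgeR).

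Jun (ENSMUSG00000052684, chr4:94937271-94940459), the AP-1 subunit that pairs with FOS proteins most readily, stood at 376, 438 and 569 CPM in fibroblast vehicle libraries and at 215, 332, 347 and 344 CPM with TGFb. The ranges were apart, and Jun fell by 0.51 on the log2 scale ± 0.13 (SE, adjusted p = 0.010, edgeR). The epithelial share would have brought 9.45% to 21.9% of the vehicle level and 0.821% to 4.48% of the TGFb level. Without mouse 4 the adjusted p for Jun was 0.105, and with the share subtracted the log2 change was -0.65 (adjusted p = 0.066, edgeR).

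The other 5 genes did not pass with TGFb in fibroblasts, and their ranges overlapped with vehicle. Fos (ENSMUSG00000021250, chr12:85520658-85524047), the classic partner of JUN, had levels of 353, 312 and 187 CPM with vehicle and of 245, 324, 268 and 153 CPM with TGFb, a log2 change of -0.26 (adjusted p = 0.24, edgeR). Fosb (ENSMUSG00000003545, chr7:19036621-19043976), a FOS relative, changed by 0.19 on the log2 scale (adjusted p = 0.44), and Fosl1 (ENSMUSG00000024912, chr19:5497575-5505974), which encodes FRA1, a factor that lasts longer than FOS, by 0.26 (adjusted p = 0.34). Junb (ENSMUSG00000052837, chr8:85701113-85705359), a JUN relative that often limits JUN activity, changed by -0.05 (adjusted p = 0.91), and Ier3 (ENSMUSG00000003541, chr17:36132568-36133815), a survival gene downstream of NF-kB and ERK, by -0.12 (adjusted p = 0.74). The 95% intervals of these 5 changes reached from -0.53 for Fos to 0.59 for Fosl1.

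In epithelial libraries TGFb moved 5 of the 10 genes past the test, 4 higher (Egr1, Egr2, Egr3 and Fosb) and Fos lower, where 41.1% of all genes passed (21% higher and 20.1% lower). The median log2 change was 0.29 over the 10 genes and 0.03 over all genes. Epithelial Egr1 stood at 48.2, 39.6, 31.8 and 29.4 CPM with vehicle in mice 1 to 4 and at 151, 113 and 147 CPM with TGFb in mice 2 to 4. No vehicle library reached the TGFb range, and the log2 change was 2.09 ± 0.15 (SE, adjusted p = 5.8e-10, edgeR), a fold of 4.25. Egr2 rose from 0.752, 0.566, 1.18 and 2.71 CPM (7 to 32 reads) to 16.3, 11.0 and 12.4 CPM (110 to 334 reads), a log2 change of 3.34 ± 0.40 (SE, adjusted p = 8.8e-07, edgeR). Egr3 went from 0.752, 0.890, 0.668 and 1.27 CPM (11 to 15 reads) to 15.1, 11.9 and 14.1 CPM (125 to 309 reads), a log2 change of 3.91 ± 0.35 (SE, adjusted p = 1.6e-08, edgeR). Both genes thus had few reads with vehicle, and their TGFb libraries lay above all vehicle libraries.

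Both these epithelial EGR levels and the fibroblast share of the same libraries were higher with TGFb. A response of the epithelial cells themselves was not tested apart from carried RNA. Multiplying the fibroblast level of each gene in the same culture by the fibroblast share of its epithelial library gave an expected level that was 95.5% to 103% of the measured Egr1 level in the 3 TGFb libraries, 122% to 140.0% for Egr2 and 92.0% to 129.8% for Egr3. What was left for Egr1 was 0 to 6.84 CPM with TGFb, against 14.9 to 25.5 CPM with vehicle, where the share would bring 34.3% to 49.4%. In vehicle libraries the share would bring 54.7% to 183% of Egr2 and 126% to 219% of Egr3. For these genes of few reads the expected level thus reached or exceeded the measured one without TGF-β as well. With the share subtracted from the counts, the log2 changes in epithelial TGFb libraries were -0.53 for Egr1 (adjusted p = 0.24), -4.56 for Egr2 (adjusted p = 0.196) and 5.67 for Egr3 (adjusted p = 0.144, edgeR), and none of the 3 passed. By the same share 0 CPM was left of Egr2 in every TGFb library and of Egr3 in every vehicle library. The size and sign of the Egr2 and Egr3 values rest on the floor of 0 set on the counts and are not read as changes.

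**Figure D2:**
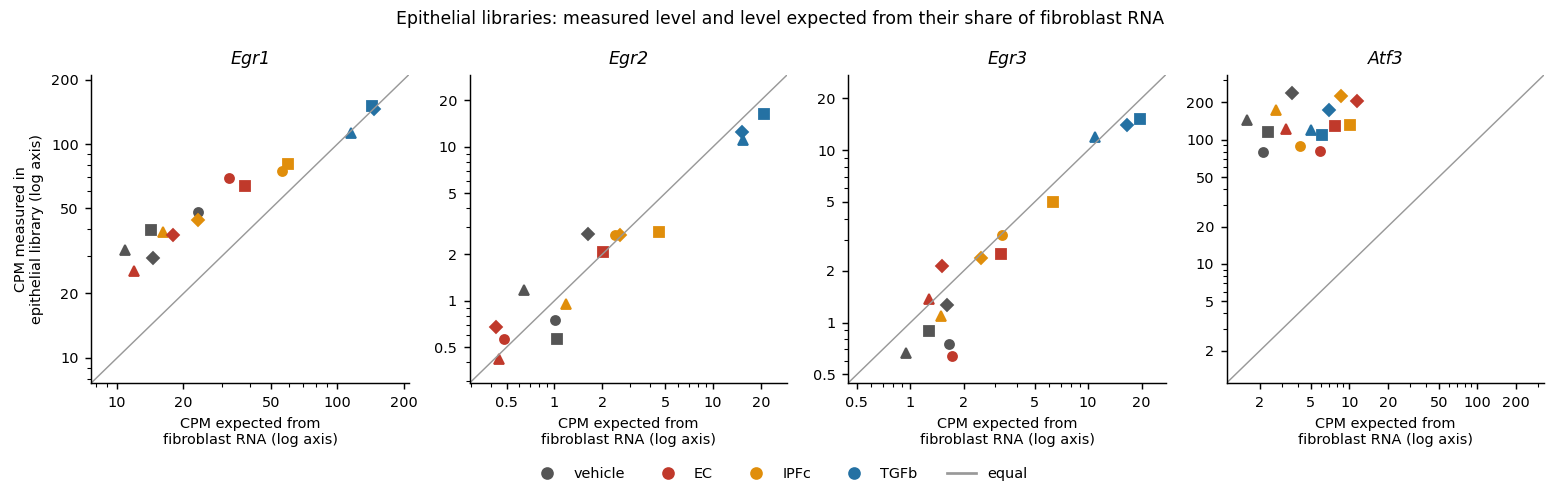
Measured level of Egr1, Egr2, Egr3 and Atf3 in each epithelial library (vertical axis, CPM) against the level expected from the fibroblast RNA it carries (horizontal axis, CPM), both on log axes, with 1 point per culture and the grey line at equality. Egr1, Egr2 and Egr3 in TGFb libraries lie at or near the line, and Egr3 in vehicle libraries lies below it. Atf3 lies far above the line in every culture, where fibroblasts would bring at most 7.73% of the level by the marker share and 9.06% by the Xist share.

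Fosb in epithelium was 204, 225, 261 and 186 CPM with vehicle and 382, 265 and 223 CPM with TGFb, so the ranges overlapped, and its log2 change was 0.44 ± 0.14 (SE, adjusted p = 0.015, edgeR). The fibroblast share would bring 59.7% to 71.0% of the TGFb level, and the change was -0.34 with the share subtracted (adjusted p = 0.25) and lost its call without mouse 1 (adjusted p = 0.050, just over the threshold) or mouse 2 (adjusted p = 0.23, edgeR). Fos moved the other way, from 212, 211, 229 and 169 CPM with vehicle to 190.0, 118 and 82.5 CPM with TGFb. Its ranges overlapped through mouse 2, every mouse with both libraries had less Fos with TGFb, and the log2 change was -0.61 ± 0.14 (SE, adjusted p = 0.0013, edgeR). Fos stood higher in fibroblasts than in epithelium, and the fall was also called with the fibroblast share subtracted. Jun, Junb, Fosl1, Atf3 and Ier3 did not pass in epithelial TGFb libraries. The nearest to the threshold was Atf3, at -0.21 (adjusted p = 0.086).

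**Figure D3:**
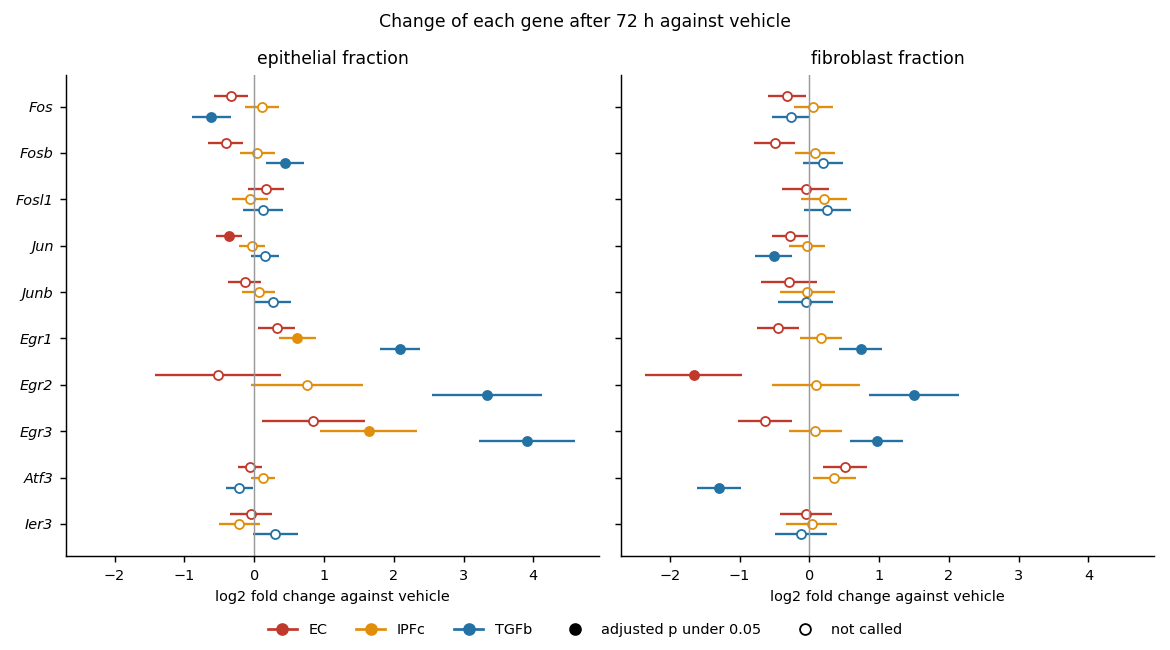
Log2 change against vehicle of each of the 10 genes in each fraction with EC, IPFc and TGFb. Points are edgeR estimates, bars are 95% intervals, and filled points passed an adjusted p of 0.05. The EGR genes stand to the right with TGFb in both fractions, Atf3 to the left with TGFb in fibroblasts, and most other intervals reach 0.

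IPFc, which contains TGF-β among its factors, moved fewer of the genes. In epithelial libraries Egr1 and Egr3 passed, both higher, where 4.1% of all genes did (2.57% higher and 1.53% lower). Epithelial Egr1 with IPFc was 74.8, 81.0, 38.7 and 44.3 CPM in mice 1 to 4, each above the vehicle library of the same mouse although the ranges overlapped, with a log2 change of 0.62 ± 0.14 (SE, adjusted p = 0.0094, edgeR). Egr3 with IPFc was 3.23, 4.98, 1.10 and 2.36 CPM (16 to 84 reads), and the log2 change was 1.64 ± 0.35 (SE, adjusted p = 0.0084, edgeR). Here too the fibroblast share was higher than with vehicle. It would bring 41.7% to 75.4% of Egr1 and 101% to 135% of Egr3 in these libraries, and with it subtracted the changes were 0.01 and 0.12 (adjusted p = 1.0 for both, edgeR). Of Egr3, 0 CPM was left in every IPFc and every vehicle library, so its subtracted change rests on the floor of 0 set on the counts. The Egr1 call was lost without mouse 1 (adjusted p = 0.061) or mouse 2 (0.10), and the Egr3 call without mouse 2 (0.17).

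In fibroblasts none of the 10 genes passed with IPFc, by edgeR or by DESeq2, where 0.449% of all genes did (0.305% higher and 0.144% lower), and 1 of them, Atf3, had an unadjusted p under 0.05. Atf3 with IPFc was 28.0, 62.9, 62.1 and 96.8 CPM, a range that held most of the vehicle range, and the log2 change was 0.35 (adjusted p = 0.71). Egr1 at 383, 372, 373 and 260.1 CPM and Egr2 at 16.4, 28.4, 27.3 and 29.0 CPM also overlapped with vehicle. Beside TGFb the IPFc fibroblasts differed in 5 genes, where 17.4% of all genes did (12.1% higher and 5.33% lower with IPFc): Egr1 by -0.57 (adjusted p = 0.0072), Egr2 by -1.40 (adjusted p = 0.0020) and Egr3 by -0.88 (adjusted p = 0.0013) on the log2 scale, IPFc minus TGFb, and Jun by 0.48 (adjusted p = 0.0087) and Atf3 by 1.65 (adjusted p = 3.0e-07, edgeR). The IPFc fibroblasts therefore lay on the vehicle side of TGFb for each of these genes. With the epithelial share subtracted by marker genes none of the 5 passed, Atf3 among them (adjusted p = 0.403, edgeR).

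EC contains no TGF-β. In fibroblasts 1 of the 10 genes passed, Egr2, which was lower, where 7.11% of all genes did (4.28% higher and 2.84% lower). Egr2 with EC was 3.36, 16.5, 8.45 and 3.87 CPM in mice 1 to 4, its range overlapped with vehicle through mouse 2, and it fell by 1.65 on the log2 scale ± 0.35 (SE, adjusted p = 0.0093, edgeR). Fosb (-0.50, adjusted p = 0.052), Egr3 (-0.64, adjusted p = 0.062), Egr1 (-0.45, adjusted p = 0.094) and Atf3 (0.51, adjusted p = 0.064) were near the threshold. Without the library of fewest reads, fibroblast EC of mouse 1, 6 genes passed, all lower. The share of all genes that passed in that fit is not given here, so its count is not read as a result about these genes. Leaving out mouse 3 or mouse 4 took the Egr2 call away (log2 change -1.92, adjusted p = 0.083, and -0.94, adjusted p = 0.18). The epithelial share of fibroblast libraries was highest with EC, at 35.8% to 55.7%, and it would bring 73.1% to 109.7% of their Atf3. With it subtracted no gene passed, and Egr2 was at -1.34 (adjusted p = 0.419, edgeR).

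In epithelium EC moved Jun alone, which was lower, where 4.41% of all genes passed (1.96% higher and 2.44% lower). Epithelial Jun was 226, 235, 394 and 473 CPM with vehicle and 216, 198, 254 and 337 CPM with EC. The ranges overlapped while each mouse had less Jun with EC than with vehicle, and the log2 change was -0.36 ± 0.10 (SE, adjusted p = 0.031, edgeR). The call was lost without mouse 2, 3 or 4 (adjusted p = 0.087, 0.195 and 0.097) and without the mouse as a block (adjusted p = 0.58). Egr1 at 69.5, 63.7, 25.5 and 37.4 CPM changed by 0.32 (adjusted p = 0.27), higher in mice 1, 2 and 4 and lower in mouse 3.

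Between EC and TGFb the EGR genes differed in both fractions. In fibroblasts 5 genes passed, where 35.4% of all genes did (19.9% higher and 15.5% lower with EC), with EC minus TGFb at -1.18 for Egr1, -3.15 for Egr2, -1.60 for Egr3 and -0.69 for Fosb, and at 1.80 for Atf3 (adjusted p = 5.8e-08, edgeR). Egr2 in fibroblasts thus spanned from 3.36 CPM in an EC library to 79.8 CPM in a TGFb library, the widest span of the EGR genes there as a ratio. With the epithelial share subtracted by marker genes, the fibroblast calls of Egr1, Egr2 and Egr3 were kept and that of Fosb was lost. Atf3 was then at 0.05 (adjusted p = 0.978, edgeR). In epithelium 6 genes passed, all lower with EC, where 43.1% of all genes did (20.9% higher and 22.2% lower). Between IPFc and TGFb 7 genes passed, where 37.2% of all genes did (18.6% higher and 18.7% lower with IPFc). Among them Fos (0.73) and Atf3 (0.33) were higher with IPFc and the others, Ier3 (-0.52) among them, lower. With the fibroblast share subtracted, the epithelial differences from TGFb turned positive for Egr1 (0.72 for EC and 0.53 for IPFc) and Egr2 (2.34 and 2.06), and none of these passed (adjusted p from 0.107 to 0.571, edgeR). Of Egr2, 0 CPM was left in the epithelial TGFb libraries, so its subtracted values rest on the floor of 0. EC and IPFc differed in 4 genes in fibroblasts (10.4% of all genes, 6.28% higher and 4.16% lower), with EC lower by log2 values of -0.59 for Fosb, -0.61 for Egr1, -1.75 for Egr2 and -0.73 for Egr3. In epithelium they differed in Fos and Fosb (4.17% of all genes, 1.76% higher and 2.4% lower), at -0.45 each, with adjusted p just under the threshold (0.048 for both, edgeR). These comparisons share groups with those against vehicle and are not independent of them.

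Whether a treatment acted differently on the fractions was tested as an interaction, epithelial response minus fibroblast response. With TGFb 5 of the 10 genes passed, all with positive values, where 27.5% of all genes passed (20.2% positive and 7.36% negative) and the median over all genes was itself shifted to 0.21. Jun differed by 0.69 (adjusted p = 0.0031), Egr1 by 1.38 (adjusted p = 4.3e-05), Egr2 by 1.86 (adjusted p = 0.014), Egr3 by 2.97 (adjusted p = 2.1e-06) and Atf3 by 1.10 (adjusted p = 5.4e-05, edgeR). With the other fraction's share subtracted, the interaction of Egr1 was -1.04 and that of Egr2 -6.10, and that of Atf3 was 0.71 and no longer passed (adjusted p = 0.611, edgeR). The subtracted Egr2 value rests on the floor of 0, as 0 CPM was left in the epithelial TGFb libraries. The Egr2 interaction also lost its call without mouse 2 (adjusted p = 0.064) or mouse 3 (adjusted p = 0.070). With EC, Egr1 alone passed, at 0.76 (adjusted p = 0.049, edgeR), where 4.59% of all genes did (1.26% positive and 3.33% negative), and with IPFc none did, where 0.229% of all genes did (0.185% positive and 0.0436% negative). The Egr1 value with EC lost its call under 9 of 14 alternatives, each mouse left out among them (0.55 to 0.98), and was 0.39 with the share subtracted (adjusted p = 0.745, edgeR). For IPFc, 2 genes had an unadjusted p under 0.05, Egr1 and Egr3, and DESeq2 called 1 gene.

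The fractions of the same culture differed more than most treatments did. With vehicle, 8 genes were lower and Atf3 was higher in epithelium, where 56% of all genes passed in either direction, 27.8% higher and 28.2% lower. The counts were 9 lower and 1 higher with EC (49.1% of all genes, 24% higher and 25.1% lower), again 9 lower and 1 higher with IPFc (58.3%, 29.5% higher and 28.7% lower), and 7 lower and 1 higher with TGFb (48.2%, 26% higher and 22.3% lower). With vehicle the EGR genes stood furthest apart, with epithelial minus fibroblast log2 differences of -5.02 ± 0.32 (SE) for Egr3, -4.13 ± 0.43 for Egr2 and -3.08 ± 0.22 for Egr1. With TGFb they were -2.09, -2.42 and -1.77, and Atf3 differed by more. Junb (-1.59), Fosb (-1.34), Fosl1 (-0.91), Fos (-0.52) and Jun (-0.45) followed with vehicle, while Ier3 at -0.40 did not pass (adjusted p = 0.092, edgeR). With TGFb, Jun at 0.15 and Ier3 at -0.04 did not pass either. Atf3 was the exception in direction, with differences of 1.64 ± 0.15 (SE) with vehicle, 1.01 with EC, 1.36 with IPFc and 2.64 with TGFb. Epithelial Atf3 was 79.4, 116, 143 and 239 CPM with vehicle in mice 1 to 4, against the fibroblast levels given above.

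Both fractions were present for 14 cultures. Egr1, Egr2, Egr3, Fos, Fosb and Junb were lower in the epithelial library of all 14, Fosl1 in 13 and Jun and Ier3 in 12, and Atf3 was higher in all 14. Since each fraction holds RNA of the other, these ratios understate differences between the cell types where a gene is high in 1 fraction, by an amount that moved with treatment.

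**Figure D4:**
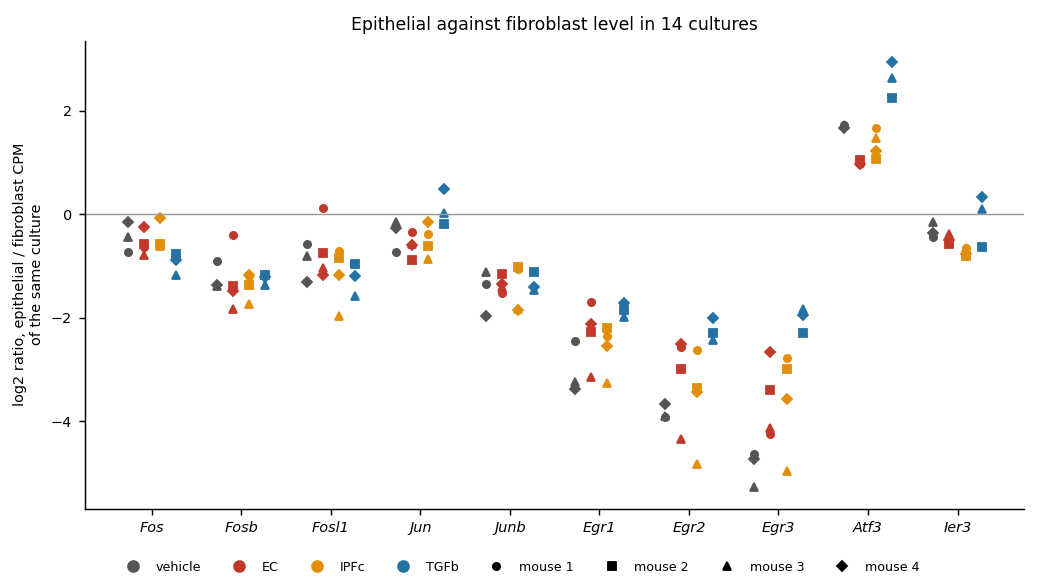
Log2 ratio of the epithelial to the fibroblast level (CPM) of the same culture for each of the 10 genes, with 1 point for each of 14 cultures and 0 marking equal levels. Atf3 lies above 0 in all 14 cultures and Egr1, Egr2, Egr3, Fos, Fosb and Junb below 0 in all 14.

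Within groups the levels of several genes went with the mouse. Atf3 was lowest in mouse 1 in all 6 groups that held 4 mice and highest in mouse 4 in 5 of them. Ier3 was highest in mouse 4 in 5 groups and Jun lowest in mouse 1 in 5, whereas Fos and Fosl1 were lowest in mouse 4 in 5 groups and Egr3 highest in mouse 2 in 5. Epithelial Atf3 showed the size of this: with EC it was 81.7, 129, 123 and 206 CPM in mice 1 to 4. The fibroblasts are 1 cell line, but their libraries also hold RNA of the epithelial donor, which would bring 48.4% to 83.6% of Atf3 in fibroblast vehicle libraries, and its part in the order by mouse was not tested. The mouse was a block in all tests, and without it 26 of the 86 calls on these genes over all comparisons were lost.

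**Figure D5:**
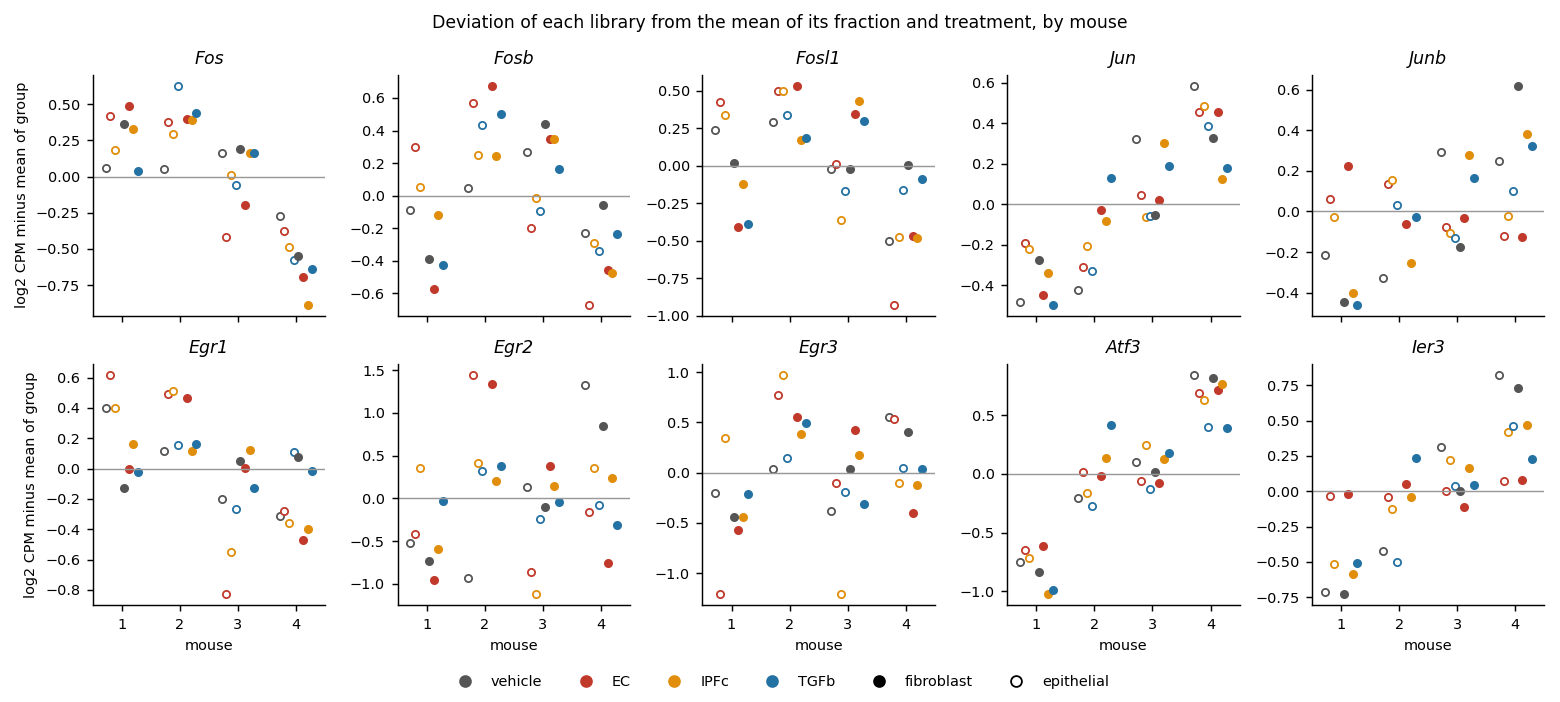
Deviation of each library from the mean of its group, in log2 CPM, for the 10 genes by mouse. Open symbols are epithelial and filled symbols fibroblast libraries. Mouse 1 lies below 0 for Atf3 and mouse 4 above 0 for Atf3, with mouse 4 mostly below 0 for Fos and Fosl1.

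After group means were subtracted, the genes fell into sets that varied together over the 15 libraries of a fraction, which come from 4 mice and are not independent. Pearson's r between Atf3 and Jun was 0.86 in epithelium and 0.90 in fibroblasts, and between Atf3 and Ier3 it was 0.84 and 0.90. Fosb and Fosl1 gave 0.83 and 0.87, Egr2 and Egr3 0.67 and 0.87, and Fos and Fosb 0.89 and 0.41. Fos ran against Atf3, at -0.65 and -0.63. The median over the 45 pairs was 0.21 in epithelium and 0.41 in fibroblasts. Each fraction held RNA of the other, in a share that differed between the mice of a group. In fibroblast libraries epithelial RNA would bring 48.4% to 83.6% of Atf3 with vehicle and 73.1% to 109.7% with EC. The part of carried RNA in these correlations, and in the likeness below, was not tested. Among all genes with a mean of at least 5 CPM, those most like Atf3 in epithelium were Tob1 (r = 0.97) and Ppp1r15a (0.96), and in fibroblasts Btg2 (0.96), Gprc5a (0.96) and Slc25a25 (0.95). The closest to Jun were Ccn1 (0.96), Cdkn1b and Btg2 (0.94 each) in epithelium and Sprr1a (0.95), Ppp1r15a and Itgb4 (0.94 each) in fibroblasts. For Ier3 they were Stradb (0.95), Slc25a25 and Tnfaip3 (0.92 each) in epithelium and Cxcl1 (0.96), Zfp36 (0.95) and Gch1 (0.93) in fibroblasts. Fos went with Bpifb1 (0.92), Cyp2f2 and Reg3g (0.91 each) in epithelium, genes of airway secretory cells, and with Ugcg (0.97), Ggta1 (0.96) and Fgf10 (0.95) in fibroblasts. Egr1 and Fosl1 went with C3 (0.95) and Mink1 (0.98) in epithelium and with Vezt (0.87) and Arap1 (0.92) in fibroblasts.

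Other genes of the same pathways were counted from lists. With TGFb, 6.39% of all genes were higher and 12.8% lower in fibroblasts, and 21% were higher and 20.1% lower in epithelium, and the counts are to be read against these shares. Of 17 feedback genes of the ERK pathway and cofactors of serum response factor, 10 were higher and 3 lower with TGFb in fibroblasts (median log2 change 0.54) and 9 were higher and 2 lower in epithelium (0.40), against none called with IPFc in either fraction or with EC in fibroblasts and 1 lower with EC in epithelium. Dusp5, a phosphatase that holds ERK in the nucleus, rose by 1.96 ± 0.18 (SE, adjusted p = 4.4e-07) in TGFb fibroblasts, together with Etv4 at 0.94, while Dusp7 (-0.79) and Etv5 (-0.80) were lower. In epithelium with TGFb the leading genes were Elk3 (1.76) and Dusp5 (1.08) up, and Etv5 (-0.87) and Spry1 (-0.43) down. Of 15 other AP-1 and EGR family genes tested, 2 were higher and 3 lower with TGFb in fibroblasts, where Mafg (0.52) and Jdp2 (0.51) rose and Batf (-5.08) and Nab1, a repressor of EGR proteins (-0.50), fell. TGFb epithelium had 3 higher and 4 lower, with Maf (1.92) and Fosl2 (0.50) up and Jund (-1.03) down. EC moved 2 of them, in fibroblasts, Maff (0.63) and Nab1 (0.49), both higher, and none in epithelium, and IPFc lowered 1 in epithelium and moved none in fibroblasts. Over all genes, 4.28% were higher with EC in fibroblasts and 1.53% were lower with IPFc in epithelium.

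Of 40 other immediate early genes, 5 were higher and 10 lower with TGFb in fibroblasts, where 6.39% and 12.8% of all genes were, the leading ones being Gadd45a (1.65), Ccn2 (2.21), Cxcl1 (-4.69) and Dusp1 (-1.13). In epithelium 16 were higher and 10 lower, where 21% and 20.1% of all genes were, with Ccn2 (2.09) and Gadd45a (2.48) up and Gadd45g (-1.33) and Zfp36 (-0.85) down. With EC 3 were higher and 4 lower in epithelium (1.96% and 2.44% of all genes), Nfkbiz (0.80) and Cxcl1 (1.42) leading upward and Btg2 (-0.44) and Zfp36 (-0.51) downward, and in fibroblasts Nr4a1 (0.60) was higher and Klf10 (-0.94) and Gem (-1.01) lower (4.28% and 2.84% of all genes). Among 16 genes known as AP-1 targets, 7 were higher and 3 lower with TGFb in fibroblasts, among them Timp1 (1.92) and Spp1 (1.84) against Sprr1a (-3.37) and Mmp3 (-2.71). EC raised 5 and lowered 1 of them in epithelium, with Mmp10 at 4.72, and raised 4 in fibroblasts, Mmp13 (1.74) and Mmp10 (1.69) among them, while none of Fos, Fosb, Fosl1, Jun and Junb passed as higher with EC in either fraction. Of 10 genes known as EGR1 targets, 4 were higher and 1 lower with TGFb in fibroblasts, with Pdgfa (2.49) and Tgfb1 (1.44) up and Icam1 (-4.16) down, and 7 were higher and 2 lower in epithelium (median 1.50), with Fgf2 (4.62) and Pdgfb (2.44) leading. In epithelium with TGFb 6 of the AP-1 targets were higher and 4 lower. With IPFc, 2.57% of all genes were higher and 1.53% lower in epithelium, and 0.305% were higher and 0.144% lower in fibroblasts. In epithelium with IPFc 1 immediate early gene was higher and 1 lower, 3 AP-1 targets were higher and 2 lower and 1 EGR1 target was higher. In IPFc fibroblasts 3 AP-1 targets were higher, 1 EGR1 target was lower and no immediate early gene passed. With EC, 1 EGR1 target was higher and 2 were lower in epithelium, and 1 was higher and 1 lower in fibroblasts. With TGFb the fibroblast share of epithelial libraries went from 5.54% to 27.6% and the epithelial share of fibroblast libraries from 18.9% to 1.95%, and their part in the counts of these lists was not tested.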

How the data were processed

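Counts per gene were deposited for 30 bulk RNA libraries, as whole reads and not normalized. Per the labels, the authors trimmed reads with Trimmomatic 0.30 and aligned them to GRCm39, whereas the methods of the study name GRCm38. The aligner and the counter are not given in the sources used here, nor whether counting used strand. The authors analysed the counts with DESeq2 1.34.0 in a paired design. Coordinates here are from GENCODE vM39 on GRCm39, which gave an exon length for 51731 of the 55487 genes. RefSeq promoter windows came from a table built on GRCm38.p6 and were placed on GRCm39 by exact match. The 10 genes, the pathway lists and the tests were chosen with earlier results of these data known.

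Differential expression was tested with the edgeR 4.0.16 quasi-likelihood F test in R 4.3.3 (limma 3.58.1), two-sided, with TMM scaling, on genes whose raw count averaged 1 or more over the libraries fitted, and Benjamini-Hochberg adjustment over all genes of a fit (18024 in epithelium, 18048 in fibroblasts, 18364 over both). A call is an adjusted p under 0.05. Treatments were compared within a fraction in a fit of its 15 libraries with the mouse as a block (8 residual degrees of freedom), fractions in a fit of all 30 libraries with the mouse as a block, and interactions with the mouse nested in fraction. Same-numbered libraries come from the same mouse, and their residuals correlated at a mean of 0.354 in epithelium and 0.358 in fibroblasts. Intervals are 95%. Not analysed here were fibroblast vehicle of mouse 2 and epithelial TGFb of mouse 1. The share of the other fraction's RNA was the median ratio of a marker's CPM in a library to its CPM in the other library of the same culture (or the group mean where that culture was not analysed), over listed markers of at least 50 CPM there. It counts a marker's own expression in the wrong cell type as carried RNA. A second share used Xist and Y-linked genes. To subtract a share, it was multiplied by the other library and taken from the counts, with a floor of 0. Levels in CPM given as left after subtraction were not scaled again for the RNA removed. Correlations used log2 CPM with a prior count of 2. Likeness was Pearson's r, and the 3 closest genes were found for Fos, Fosl1, Jun, Egr1, Atf3 and Ier3. From each list at most 2 genes per direction with the smallest adjusted p were named. A few genes that these rules select are not reported here. Total counts of 5113828 to 20317181 per library set the precision. None of 42 pairs of libraries within a group agreed within counting noise (chi-square per degree of freedom 5.48 to 76.9). Scripts were tested on simulated counts. Alternatives were DESeq2 1.42.0 with its own size factors, RLE scaling, other filters, robust fits, fits of only the groups compared, no block, each mouse left out, and counts less the share of the other fraction. Those without fibroblast EC of mouse 1 and with the Xist and Y-linked share were added after the data were seen. Title suffix R marks 16 libraries without a stated meaning, and only mouse 3 held both kinds within a fraction. For treatments compared within a fraction, the fits without mouse 3 are thus also those within the suffix classes. Between the fractions this does not hold, because the fractions of mice 1, 2 and 4 differed in suffix.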

Additional observations from a re-analysis of the deposited data

Results flagged for a closer look

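In 60 sets of 4 libraries (10 genes in 6 groups), 5 held a library far from the other 3, by the gap to the nearest library over the range of the 4, and chance flags about 1 in 20. They were Jun in fibroblast TGFb (mouse 1 low at 215 CPM, ratio 0.886), Egr1 in fibroblast IPFc (mouse 4 low at 260.1 CPM, 0.909), Egr2 in fibroblast IPFc (mouse 1 low at 16.4 CPM, 0.869), Egr2 in epithelial EC (mouse 2 high at 2.07 CPM, 0.842) and Egr2 in epithelial IPFc (mouse 3 low at 0.959 CPM, 0.936). The epithelial Egr2 levels rest on 7 to 47 reads per library.

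Responses that differed between the fractions by an interaction test (edgeR, epithelial minus fibroblast, log2) were Egr1 with EC at 0.76 and, with TGFb, Jun at 0.69, Egr1 at 1.38, Egr2 at 1.86, Egr3 at 2.97 and Atf3 at 1.10. The share of the other fraction's RNA moved with TGFb in both fractions, and with it subtracted the TGFb values of Egr1 and Egr2 were negative and that of Atf3 was 0.71 (adjusted p = 0.611, edgeR). The subtracted Egr2 value rests on the floor of 0, as 0 CPM was left in the epithelial TGFb libraries. The EC value of Egr1 lost its call under 9 of 14 alternatives.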

How the results depend on the processing

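Of the 86 calls on the 10 genes over all comparisons, 33 were kept under every alternative run. The counts of called genes between the fractions stayed between 8 and 10. Other counts moved as follows, each with the count by the reported fit first. The share of all genes that passed is not given for these alternatives. The counts therefore show how calls moved and are not read as results about these genes. Subtracting the other fraction's RNA by marker genes changed the counts for treatment against vehicle from 1 to 0 (epithelial EC), 2 to 0 (epithelial IPFc), 5 to 3 (epithelial TGFb), 1 to 0 (fibroblast EC) and 5 to 0 (fibroblast TGFb). Between treatments it changed them from 2 to 0 (epithelial EC and IPFc), 6 to 3 (epithelial EC and TGFb), 7 to 3 (epithelial IPFc and TGFb), 4 to 0 (fibroblast EC and IPFc), 5 to 3 (fibroblast EC and TGFb) and 5 to 0 (fibroblast IPFc and TGFb), and for the interactions from 1 to 0 (EC) and 5 to 2 (TGFb). The share from Xist and Y-linked genes, in the same order, left 0, 0, 1, 0 and 1, then 0, 2, 2, 0 and 2 (fibroblast EC and TGFb not moved), then 0 and 2. Such counts can include genes that the reported fit did not call. With the marker share, Fos alone of the 5 epithelial TGFb calls against vehicle was kept, so the 3 called there include genes not called before.
Without the replicate block, which pairs the libraries of a mouse, counts were 0 (epithelial EC), 1 (epithelial IPFc), 3 (epithelial TGFb), 0 (fibroblast EC), 0 (epithelial EC and IPFc), 4 (epithelial IPFc and TGFb), 1 (fibroblast EC and IPFc), 0 (EC interaction) and 3 (TGFb interaction), and leaving it out moved no other count by as much. DESeq2 called 4 (epithelial EC and IPFc), 4 (fibroblast EC), 3 (EC interaction) and 1 (IPFc interaction). Without a filter there were 3 (epithelial EC), 4 (epithelial EC and IPFc), 5 (fibroblast EC), 3 (EC interaction) and 1 (IPFc interaction). RLE scaling gave 0 (epithelial EC and IPFc), 2 (fibroblast EC) and 0 (EC interaction), the filterByExpr filter 0, 2 and 2 for the same, and a robust fit 1 for epithelial EC and IPFc. Fits of only the groups compared gave 4 (fibroblast EC) and 3 (EC interaction). With 1 mouse left out, counts ran from 0 to 1 (epithelial EC), 0 to 2 (epithelial IPFc), 0 to 2 (epithelial EC and IPFc), 0 to 6 (fibroblast EC, 6 without the fibroblast EC library of mouse 1), 2 to 6 (fibroblast EC and IPFc) and 0 to 2 (EC interaction).
Calls changed direction only where RNA of the other fraction was subtracted. By the marker share the log2 values became -0.34 (Fosb), -0.53 (Egr1) and -4.56 (Egr2) for epithelial TGFb against vehicle, 0.36 (Junb), 0.72 (Egr1) and 2.34 (Egr2) for epithelial EC against TGFb, 0.20 (Fosb), 0.53 (Egr1) and 2.06 (Egr2) for epithelial IPFc against TGFb, and -1.04 (Egr1) and -6.10 (Egr2) for the TGFb interaction. By the Xist and Y-linked share they became -0.82, -1.28 and -4.38, then 0.16 (Fosb), 1.23 (Junb), 1.82 (Egr1), 2.29 (Egr2) and 3.60 (Egr3), then 0.75 (Fosb), 1.87 (Egr1), 3.58 (Egr2), 2.86 (Egr3) and -0.081 (Atf3), then -2.04 and -5.62. In every epithelial TGFb library the marker share left 0 CPM of Egr2, and the Xist share left 0 CPM of Egr2 and Egr3. The size and sign of their folds thus rest on the floor of 0. Low epithelial Egr2 and Egr3 counts (7 to 84 reads outside TGFb) limit these folds too, and the cause of the other moves was not tested.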

Other observations

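Stress genes were counted as well, since dissociation and culture can induce them. Of 11 heat shock genes, 7 were lower and none higher with TGFb in epithelium, where 20.1% and 21% of all genes were, with Hspa1b (-1.75) and Hspa1a (-1.49) leading on the log2 scale, and in fibroblasts with TGFb 2 were lower (Hspa1a at -1.23) and 1 higher (Hsph1 at 0.68). Over all genes 6.39% were higher and 12.8% lower with TGFb in fibroblasts. EC raised 1 heat shock gene in fibroblasts (4.28% of all genes) and none in epithelium, and IPFc raised 2 in epithelium (2.57% of all genes). Of 11 genes of the ATF4 and ATF3 stress response, 4 were higher and 3 lower with TGFb in epithelium and 3 higher and 2 lower in fibroblasts. EC and IPFc raised 1 of these each in epithelium (1.96% and 2.57% of all genes). In fibroblasts EC raised 1 and lowered 1 (4.28% and 2.84% of all genes), and IPFc moved none. The heat shock genes were higher in epithelium than in fibroblasts with vehicle (median log2 difference 1.08), and fibroblast RNA in epithelial libraries went from 5.54% to 27.6% with TGFb. Its part in these counts was not tested.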
